A study of Homo sapiens with 2 samples.

Results

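A set of 9 genes of the interferon signalling machinery was followed across single cells of colon organoids: the receptor chains IFNGR1, IFNGR2 and IFNAR1, the kinases JAK1 and JAK2, the transcription factors STAT2 and STAT3, and the inhibitors SOCS1 and SOCS3. They were chosen by symbol, 9 of the 36601 genes counted, and each was found once in the feature list. The organoids came from 1 human induced pluripotent stem cell line, 1383D6, so both libraries are of 1 genetic background. One library (CNT) was made from organoids without cytokines and the other (3CK) from organoids given IL-1β, IFN-γ and TNF-α over 8 days. Both groups were taken through definitive endoderm with Activin A and FGF2, embedded in Matrigel, and differentiated with EGF (20 ng/mL), Forskolin (30 µM), PD98059 (20 µM), 5-Aza-2'-Deoxycytidine (5 µM) and an agent whose name begins with A-83 (0.5 µM). Dissociated cells, about 8300 loaded per library, went into the single cell 3' v3.1 chemistry of 10x Genomics, which counts unique molecular identifiers (UMIs) near the 3' end of transcripts.

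IFN-γ binds a receptor made of IFNGR1 and IFNGR2 chains, which carry JAK1 and JAK2. The type I interferons bind a different receptor, of which IFNAR1 is a chain, and there STAT2 joins the complex that enters the nucleus. STAT3 is the main factor downstream of the interleukin-6 family. SOCS1 and SOCS3 are made in response to these signals and damp them by binding kinases and receptors. In the intestinal epithelium this pathway is known for its part in mucosal inflammation.

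After filtering, 2487 CNT cells with 101831571 UMIs and 1398 3CK cells with 91860414 UMIs were kept, and the libraries shared 0 barcodes. Cells with at least 2 EPCAM UMIs per 10000 were called epithelial, 1660 in CNT and 1016 in 3CK. Cells with at least 5 UMIs per 10000 from COL1A1, COL1A2 and COL3A1 and under 1 of EPCAM were called mesenchymal, 574 in CNT and 124 in 3CK. The median depth of epithelial cells was 37785 UMIs in CNT and 72198 in 3CK, and that of mesenchymal cells 23450.5 and 65363. Markers of intestine, which do not set colon apart, were read beside the colon label. The intestinal factor CDX2 stood at 80.6 CPM (UMIs scaled to a total of 1000000) in CNT epithelial cells and 83.3 CPM in 3CK. In mesenchymal cells CDX2 was at 28.7 and 35.7 CPM. The intestinal cadherin CDH17 was at 302 and 183 CPM in epithelial cells. VIL1, a gene of the brush border, was at 130 and 29.3 CPM in these cells, and CDX1, a relative of CDX2, at 14.9 and 13.4 CPM. The liver-type transcript TTR was at 64857 CPM in CNT epithelial cells and 19491 CPM in 3CK. The summed level of 5 hepatic markers, TTR among them, was 94449 and 30653 CPM in these cells. With 1 library per group there is no replicate. The intervals given are 95% intervals that cover counting error only, no test across replicates was possible, and every difference compares these libraries.

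The genes lie on 7 chromosomes of GRCh38 by the GENCODE 44 annotation. IFNGR1 is at chr6:137197483-137219449 (minus strand), JAK1 at chr1:64833223-65067754 (minus), JAK2 at chr9:4984390-5129948 (plus), STAT2 at chr12:56341597-56360203 (minus) and SOCS1 at chr16:11254417-11256204 (minus). STAT3 (chr17:42313324-42388540) and SOCS3 (chr17:78356778-78360077), both on the minus strand, share a chromosome. IFNAR1 (chr21:33324387-33359864) and IFNGR2 (chr21:33403413-33479348) are neighbours on the plus strand of chromosome 21, with 43548 bases between them.

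RefSeq (GRCh38.p14) gave 17 promoter windows for the 9 genes, each the 250 bases before a RefSeq start, which can lie away from the annotated gene start. The windows of SOCS1, the gene with the largest difference between libraries, and of IFNGR2, a gene with one of the smallest, are shown 5′ to 3′ because both end exactly at the annotated gene start.
SOCS1, chr16:11256205-11256454, minus strand: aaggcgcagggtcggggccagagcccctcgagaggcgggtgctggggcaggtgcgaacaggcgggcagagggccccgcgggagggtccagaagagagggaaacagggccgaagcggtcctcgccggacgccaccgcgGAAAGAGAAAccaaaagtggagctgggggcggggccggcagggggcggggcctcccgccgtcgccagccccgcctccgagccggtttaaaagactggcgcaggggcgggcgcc
IFNGR2, chr21:33403163-33403412, plus strand: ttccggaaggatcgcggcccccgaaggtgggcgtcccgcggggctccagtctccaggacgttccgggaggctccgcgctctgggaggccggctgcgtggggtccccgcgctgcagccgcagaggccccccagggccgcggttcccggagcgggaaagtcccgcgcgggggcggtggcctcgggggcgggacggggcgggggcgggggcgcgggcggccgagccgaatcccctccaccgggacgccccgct
The capitals mark the only match in the 17 windows to the interferon-stimulated response element, searched as GAAA, any pair of bases and GAAA on both strands, which lies from -113 to -104 relative to the SOCS1 start. The gamma-activated site, searched as TTCNNNGAA, which is its own reverse complement, had 0 matches in these windows. The windows of SOCS3 do not cover the bases directly before its annotated start, so that stretch was not searched. Of 35116 promoters of the same length, 3.02% held the first motif and 6.57% the second. A match is a description of the letters in the window.

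Over all kept cells, 7 of the 9 genes were at least 2-fold higher in 3CK, and 0 were at least 2-fold lower. Of the 17523 genes at 1 CPM or more in either library, 6.96% were at least 2-fold higher and 11.3% at least 2-fold lower. The median log2 ratio of the 9 genes was 1.30 and that of all these genes -0.05. The difference was unequal in the cell classes. Among epithelial cells 7 of the 9 were at least 2-fold higher, against 8.48% of genes there, and among mesenchymal cells 2 of the 9, against 6.05%. In mesenchymal cells 7 of the 9 were above a log2 ratio of 0, the lowest of these 7 being IFNAR1 at 0.007. Of all genes there, 63.4% lay below IFNAR1, and the median was -0.21. All 9 genes were above 1 CPM in each class of each library, so none was lost to the filter on low values.

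**Figure D1:**
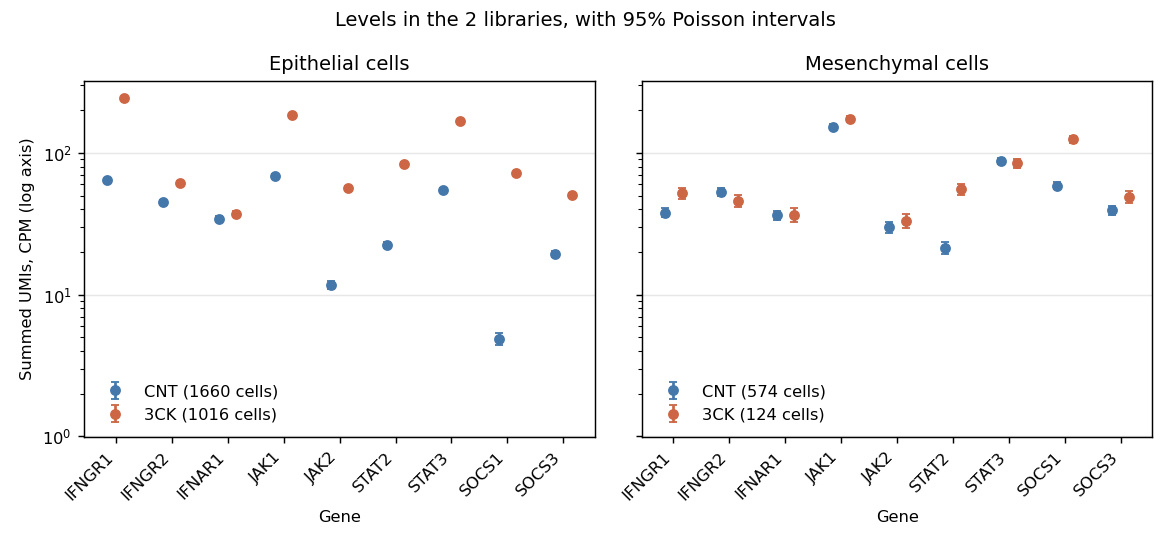
Level of each gene in CPM (log axis) in epithelial (left) and mesenchymal cells (right) of the CNT (blue) and 3CK (orange) libraries, with 95% Poisson intervals. In epithelial cells the 3CK value stands well above CNT for 7 genes and SOCS1 starts lowest, at 4.86 CPM, while in mesenchymal cells STAT2 and SOCS1 separate most.

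IFNGR1, the ligand-binding chain of the IFN-γ receptor, was at 63.9 CPM (62.1 to 65.7) in CNT epithelial cells and 243 CPM (240 to 247) in 3CK, 3.81-fold higher (3.69 to 3.94). In mesenchymal cells its levels were 37.8 CPM in CNT and 52.0 CPM in 3CK, 1.38-fold higher (1.22 to 1.55). Thus the epithelial level exceeded the mesenchymal one in both libraries, and the gap was wider in 3CK, where the mesenchymal level was 0.214 times the epithelial one (0.195 to 0.234), against 0.591 times in CNT. These values depend on the weight of the cells: with each cell weighted equally, the mesenchymal log2 ratio of 3CK over CNT was 1.09 in place of 0.46, and that of mesenchymal over epithelial cells in 3CK was -1.24 in place of -2.23. IFNGR1 was the only one of the 9 genes at least 2-fold higher in epithelial than in mesenchymal cells of 3CK, where 16.8% of genes were, and 0 of the 9 were in CNT, where 15.1% were. STAT3, at 0.501 times, lay just inside the 2-fold limit. Free RNA was gauged by TTR, whose mesenchymal level was 1.22% of the epithelial one in 3CK and 2.17% in CNT. CDH1, the epithelial cadherin, was at 3.01% and 10.8%, and IFNGR1 at 21.4% and 59.1%. The summed level of 8 epithelial markers, CDH1 among them, was closer between the classes. In 3CK it was 11668 CPM in mesenchymal and 22148 CPM in epithelial cells, and in CNT 8961 and 11567 CPM. The part of free RNA in the mesenchymal IFNGR1 values was not tested.

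IFNGR2, the signalling chain that pairs with IFNGR1, differed little. It was at 44.7 CPM in CNT epithelial cells and 61.3 CPM in 3CK, 1.37-fold higher (1.31 to 1.43), and at 53.0 and 45.9 CPM in mesenchymal cells, 0.865 times (0.770 to 0.969). The chains of 1 receptor therefore differed between libraries to unequal degrees in epithelial cells. In mesenchymal cells the log2 ratio of IFNGR2, -0.21, was at the median of all genes there, also -0.21, and with median-of-ratios factors it was -0.014. IFNAR1, a chain of the type I interferon receptor, was at 34.4 CPM in CNT epithelial cells and 37.2 CPM in 3CK, and at 36.2 and 36.4 CPM in mesenchymal cells. These 4 values of IFNAR1 lay within 1.08-fold of each other, the smallest spread among the 9 genes. The other receptor genes of the same chromosome 21 cluster, IFNAR2 (partner of IFNAR1) and IL10RB (partner chain for interleukin-10 and type III interferons), were at 27.9 and 19.6 CPM in CNT epithelial cells and 54.7 and 37.1 CPM in 3CK, log2 ratios of 0.97 (0.90 to 1.05) and 0.92 (0.83 to 1.02). In mesenchymal cells their log2 ratios were -0.15 (-0.37 to 0.06) and 0.36 (0.18 to 0.54).

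JAK1, the kinase shared by all interferon receptors, was at 69.0 CPM in CNT epithelial cells and 184 CPM in 3CK, 2.67-fold higher (2.58 to 2.75). In mesenchymal cells it was at 153 and 174 CPM, 1.14-fold higher (1.07 to 1.21). The epithelial level of 3CK thus stood beside the mesenchymal one, at a log2 ratio of mesenchymal over epithelial cells of -0.08 (-0.155 to -0.004), where in CNT it had been 1.15 (1.08 to 1.21). JAK2, the kinase carried by IFNGR2, was at 11.6 CPM in CNT epithelial cells and 56.1 CPM in 3CK, 4.83-fold higher (4.49 to 5.20). In mesenchymal cells JAK2 was at 29.8 CPM (585 UMIs) and 33.2 CPM (303 UMIs), and the interval of that fold, 0.969 to 1.29, includes 1. The mesenchymal log2 ratio of JAK2 varied with the setting, at 0.16 as given, 0.95 with equal weight per cell and -0.25 with the class drawn by DCN. JAK2 was therefore higher in mesenchymal than in epithelial cells of CNT, 2.56-fold, and lower in 3CK, 0.592 times (0.525 to 0.666).

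STAT2, the partner of IRF9 in the type I interferon complex, was at 22.3 CPM in CNT epithelial cells and 84.1 CPM in 3CK, 3.77-fold higher (3.57 to 3.98). In mesenchymal cells it was at 21.4 and 55.4 CPM, 2.59-fold higher (2.27 to 2.95). STAT2 was one of the genes that reached 2-fold in both classes, the other being SOCS1. Under total scaling STAT2 started from levels that did not differ between the classes beyond counting error, at 0.959 times (0.860 to 1.07) in CNT. With TMM factors the log2 ratio of mesenchymal over epithelial cells in CNT was -0.45 in place of -0.06. STAT3 was at 55.1 CPM in CNT epithelial cells and 168 CPM in 3CK, 3.05-fold higher (2.95 to 3.16). In mesenchymal cells STAT3 was at 87.1 and 84.2 CPM, 0.967 times, with an interval of 0.887 to 1.05. STAT3 was thus higher in mesenchymal cells in CNT, 1.58-fold, and higher in epithelial cells in 3CK.

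SOCS1, which binds JAK kinases and blocks their activity, showed the widest range. It was at 4.86 CPM (370 UMIs) in CNT epithelial cells and 71.8 CPM (5037 UMIs) in 3CK, 14.8-fold higher (13.3 to 16.5). In mesenchymal cells it was already at 58.7 CPM in CNT and stood at 125 CPM in 3CK, 2.13-fold higher (1.96 to 2.31). CNT mesenchymal cells thus held 12.1-fold more SOCS1 than CNT epithelial cells (10.7 to 13.6), and the gap in 3CK was 1.74-fold (1.63 to 1.85). The mesenchymal gene DCN was at 4.23% of its mesenchymal level in CNT epithelial cells and at 0.792% in 3CK, LUM, another mesenchymal gene, at 10.1% and 4.94%, and SOCS1 at 8.27% and 57.6%. In CNT the SOCS1 value lay between those of DCN and LUM, so the 14.8-fold rests on a low level whose share of free RNA was not tested, while the 3CK value lay above both. With each cell weighted equally, the epithelial log2 ratio was 2.67 in place of 3.89, and with stricter classes it was 4.63. The log2 ratio of mesenchymal over epithelial cells in CNT was 2.10 and 4.33 under these settings, in place of 3.60. When the mesenchymal class was drawn by DCN in place of the collagens, its mesenchymal log2 ratio was 0.81 in place of 1.09, under the 2-fold limit.

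SOCS3, which binds cytokine receptors of the interleukin-6 type as well as JAKs, was at 19.4 CPM in CNT epithelial cells and 50.8 CPM in 3CK, 2.61-fold higher (2.46 to 2.78). In mesenchymal cells it was at 39.4 and 48.7 CPM, 1.24-fold higher (1.10 to 1.39). SOCS3 also belongs to the transcripts that tissue dissociation can induce, and the summed level of 11 such genes was 438 CPM in CNT and 610 CPM in 3CK epithelial cells, and 867 and 826 CPM in mesenchymal cells. In epithelial cells 6 of the 11 were above a log2 ratio of 0, with ATF3 at least 2-fold higher (log2 ratio 1.99) and FOSB at least 2-fold lower (2.14 and 0.756 CPM). The part of that response in the SOCS3 values was not tested.

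**Figure D2:**
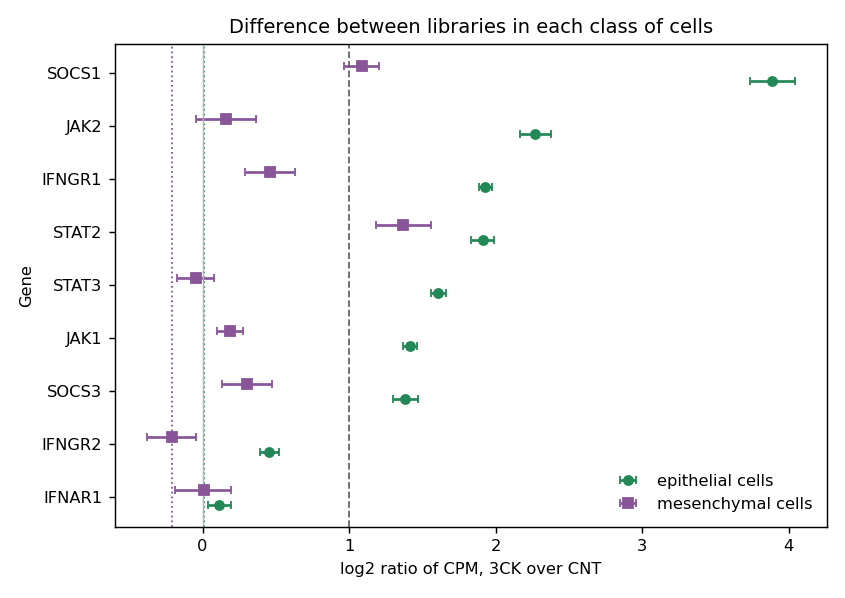
The log2 ratio of 3CK over CNT (horizontal axis) for each gene in epithelial (green circles) and mesenchymal cells (purple squares), with 95% intervals from counting error. The dashed line marks 2-fold and the dotted lines the median of all genes in each class; 7 epithelial but only 2 mesenchymal points (STAT2 and SOCS1) lie to the right of the dashed line.

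The ratio was smaller in mesenchymal than in epithelial cells for all 9 genes under total scaling, by 2.80 log2 units for SOCS1 (2.61 to 2.99), 2.11 for JAK2 (1.89 to 2.34), 1.66 for STAT3, 1.47 for IFNGR1, 1.23 for JAK1 and 1.08 for SOCS3. These 6 were smaller by at least 1 unit, which held for 15.8% of all genes. The remaining differences were 0.67 for IFNGR2, 0.54 for STAT2 and 0.11 for IFNAR1, whose interval for mesenchymal minus epithelial cells, -0.31 to 0.10, includes 0. The median of all genes was also below 0, at -0.21, and 56.3% of all genes lay below the value of IFNAR1. With equal weight per cell the ratio was smaller in mesenchymal cells for 7 genes, 3 of them by at least 1 unit (STAT3, SOCS1 and IFNGR2), and mesenchymal minus epithelial cells gave 0.24 for IFNAR1 and 0.05 for STAT2. JAK2 then gave -0.91, IFNGR1 -0.75, JAK1 -0.69 and SOCS3 -0.31. With TMM or median-of-ratios factors, IFNAR1 was at 0.04 and 0.06 and 5 genes were smaller by at least 1 unit, SOCS3 being at -0.93 and -0.91. The share of all genes was not computed under these other weights and scalings. In mesenchymal cells the summed level of 7 leukocyte markers was 56.3 CPM in CNT and 199 CPM in 3CK. PTPRC, the defining leukocyte marker, was at 0.560 and 3.62 CPM there. The same sum was 92.1 CPM in CNT and 113 CPM in 3CK epithelial cells, so the CNT mesenchymal sum lay below the epithelial one. Of the 7 markers, 3 were under 1 CPM in 3CK mesenchymal cells, among them CD3E, which was not seen. Whether the mesenchymal class held leukocytes was not tested. Collagens also differed between libraries: 29.9% of CNT and 4.82% of 3CK epithelial cells passed the collagen limit of the mesenchymal class. How far a shift of collagens affected which 124 cells of 3CK were called mesenchymal was not tested.

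The gap between the classes differed between libraries, and its direction turned for only some of the 9 genes. In CNT, SOCS1, JAK2, JAK1 and SOCS3 were at least 2-fold higher in mesenchymal than in epithelial cells, 4 of 9 against 26.1% of all genes. In 3CK 0 of 9 were, against 19% of all genes. There the log2 ratio of mesenchymal over epithelial cells was -0.76 for JAK2, -0.08 for JAK1, -0.06 for SOCS3 and 0.80 for SOCS1. SOCS1 was thus higher in mesenchymal cells of both libraries, and IFNGR1 higher in epithelial cells of both. The CNT count depends on the setting. TMM factors move the median of all genes by -0.39 log2 units. With them 1 of the 9 was at least 2-fold higher (SOCS1, at a log2 ratio of 3.21), JAK2 was at 0.97, JAK1 at 0.76 and SOCS3 at 0.63. SOCS3, at a log2 ratio of 1.02 as given, fell under 2-fold in 7 of 15 alternative settings. Among them were settings with no barcode filter and with no doublet removal.

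The pathway's targets were present in both classes of 3CK. The summed level of 13 genes known to respond to IFN-γ (CXCL9, CXCL10, IDO1, GBP1, IRF1 and others) was 7247 CPM in epithelial and 7784 CPM in mesenchymal cells of 3CK, against 104 and 327 CPM in CNT. All 13 were at least 2-fold higher in 3CK in each class. Their median log2 ratio of 3CK over CNT was 7.13 in epithelial and 4.65 in mesenchymal cells. In 3CK the summed target level of mesenchymal cells was thus close to the epithelial one. Of the 13, CXCL9 was at least 2-fold higher and GBP5 at least 2-fold lower in mesenchymal than in epithelial cells of 3CK. IFNGR1 was at 52.0 against 243 CPM, JAK2 at 33.2 against 56.1 CPM and JAK1 at 174 against 184 CPM. These values are set side by side with no test.

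Shares of cells were compared at an equal depth of 5000 UMIs, to which each cell was thinned; 598 epithelial and 254 mesenchymal cells of CNT and 240 and 17 of 3CK were shallower and left out. IFNGR1 was seen in 24.4% of CNT epithelial cells (259 of 1062) and 65.1% of 3CK epithelial cells (505 of 776), a difference of 40.7 percentage points (36.3 to 44.8). SOCS1 was seen in 2.73% and 22.9%, JAK2 in 7.44% and 21.6%, STAT2 in 10.8% and 34.0%, and STAT3 in 22.5% and 50.6%. At this depth IFNGR1 was thus seen in most 3CK epithelial cells, while SOCS1 and JAK2 were unseen in most of them. JAK1 was unseen in 72.3% of CNT and 46.3% of 3CK epithelial cells. The IFNAR1 share, 15.5% and 17.9%, had a difference whose interval, -1.05 to 5.89 points, includes 0. In mesenchymal cells SOCS1 was seen in 23.8% of CNT (76 of 320) and 43.9% of 3CK cells (47 of 107), and STAT2 in 13.8% and 25.2%. The mesenchymal intervals of IFNGR1 (-2.79 to 15.7 points), JAK1, JAK2, STAT3, IFNGR2 and IFNAR1 include 0. As background, the mesenchymal gene DCN was seen in 7.91% of CNT and 2.19% of 3CK epithelial cells, so the SOCS1 share of CNT lay below it and that of 3CK above. Without thinning, SOCS1 was seen in 13.1% of CNT and 63.2% of 3CK epithelial cells.

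**Figure D3:**
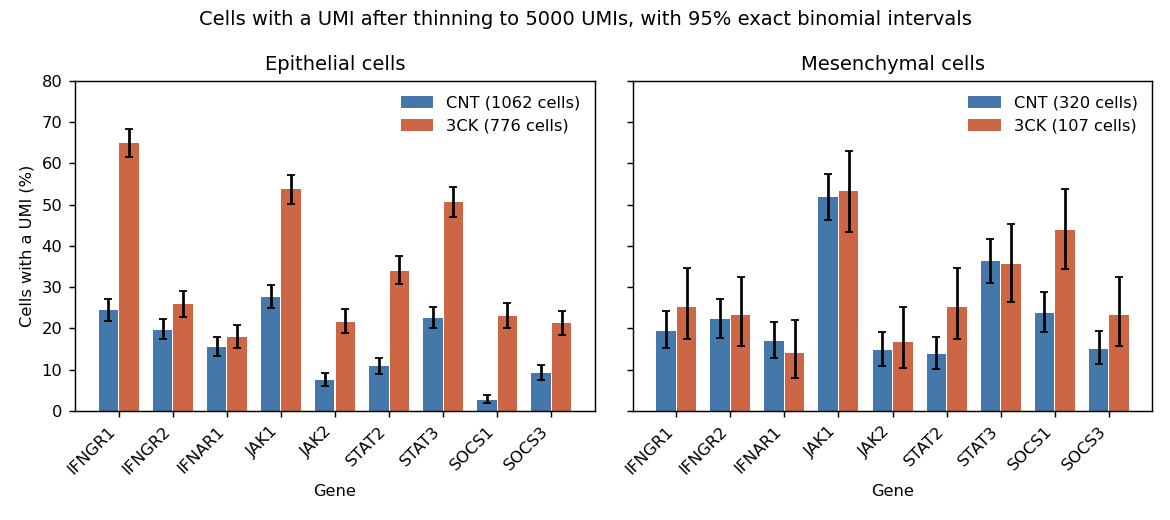
Share of epithelial (left) and mesenchymal cells (right) with at least 1 UMI of each gene after thinning every cell to 5000 UMIs, CNT blue and 3CK orange, with 95% exact binomial intervals. IFNGR1 shows the widest epithelial gap, 24.4% against 65.1%, and IFNAR1 bars overlap in both classes.

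Within 3CK epithelial cells, the UMIs of SOCS1 went with those of the IFN-γ target genes. Cells with 0, 1 and 2 or more SOCS1 UMIs (598, 133 and 45 cells) had median target counts of 26, 34 and 46 UMIs at equal depth, with quartiles of 16 to 42, 21 to 49 and 32 to 63. For IFNGR2 the medians were 26, 28 and 41 UMIs, the last over 39 cells. For IFNGR1 the medians were 26, 29 and 28, and for STAT3 27, 28 and 27.5, within quartiles that ran from 15 to 46 UMIs in these groups. The medians were 25, 29 and 30 for JAK1, 27, 30 and 32 for JAK2, and 27, 27 and 33.5 for SOCS3. For STAT2 they were 26, 30 and 29, and for IFNAR1 27, 30.5 and 28. In 3CK mesenchymal cells the SOCS1 medians were 27, 29 and 22.5 over 60, 29 and 18 cells, so no such order was seen there. STAT2 and STAT3 were seen together in 21.5% of 3CK epithelial cells (18.7 to 24.6), where the product of their single shares is 17.2%. SOCS1 and SOCS3 were seen together in 4.77% (3.38 to 6.51), near the product of 4.88%. These are descriptions of cells from 1 library, which are not replicates.

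Finer ranges of epithelial cells were drawn by TTR (at least or under 100 UMIs per 10000) and by cycling genes. SOCS1 hardly varied among them in 3CK, at 70.9 CPM in TTR-high, 73.6 CPM in TTR-low and 65.3 CPM in cycling cells. JAK2 did, at 25.8 CPM in TTR-high and 96.8 CPM in TTR-low cells, and so did STAT2 (60.6 and 116 CPM) and STAT3 (127 and 224 CPM). In CNT the same order held at lower levels, with JAK2 at 10.1 and 22.8 CPM (log2 ratio of TTR-high over TTR-low -1.17) and STAT2 at a log2 ratio of -0.57. TTR-low cells were 176 in CNT and 465 in 3CK. Within TTR-high cells JAK2 was 2.55-fold higher in 3CK (2.31 to 2.82) and within TTR-low cells 4.24-fold (3.67 to 4.93). The fold of all epithelial cells, 4.83, lay above both. So it did for STAT3 (3.05 against 2.54 and 2.43) and IFNGR1 (3.81 against 3.64 and 3.06). The same held for JAK1 (2.67 against 2.45 and 2.24) and STAT2 (3.77 against 2.84 and 3.68). For SOCS1 (14.8 against 16.0 and 10.2) and SOCS3 (2.61 against 2.67 and 2.10) it lay between them. The part of the mix of ranges in these folds was not tested. The level of all genes differed too, since 27.3% of genes in 3CK and 32.1% in CNT were at least 2-fold lower in TTR-high than in TTR-low cells, with a median log2 ratio of -0.51 and -0.62, so STAT2 of CNT lay near the median. In mesenchymal cells SOCS1 was at 52.5 CPM in non-cycling and 90.9 CPM in cycling cells of CNT and at 133 and 92.5 CPM in 3CK, where the cycling range held 21 cells.

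**Figure D4:**
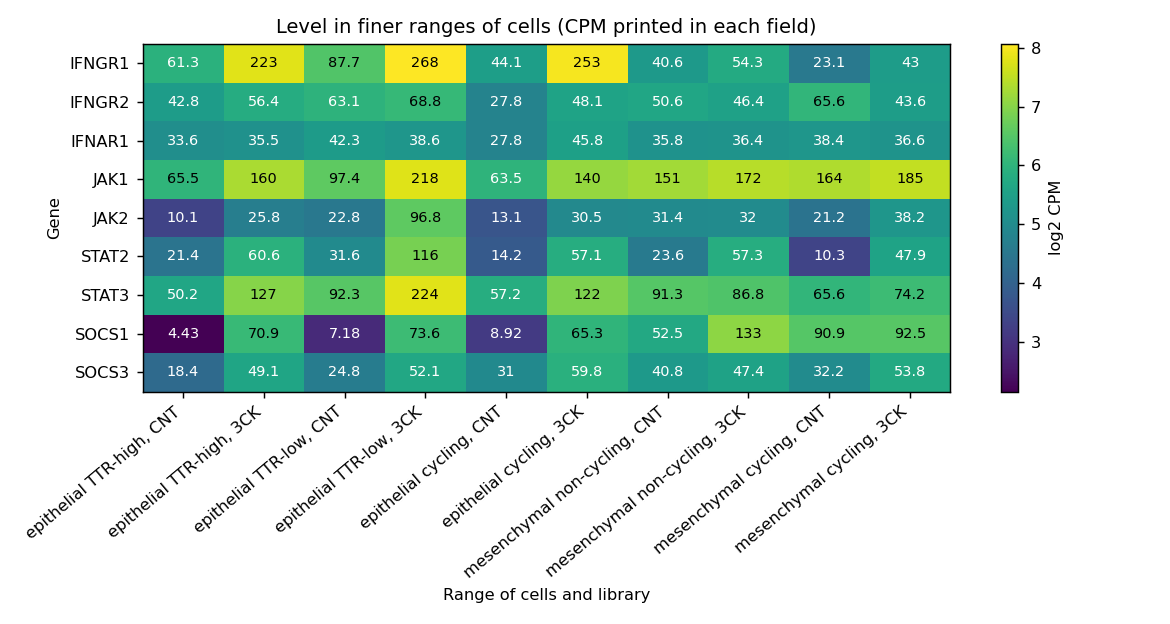
Level in CPM (printed in each field, coloured on a log2 scale) of each gene in 5 ranges of cells of both libraries. Along the SOCS1 line the 3 epithelial CNT fields are the darkest, at 4.43 to 8.92 CPM, and JAK2, STAT2 and STAT3 are highest in TTR-low epithelial cells of 3CK.

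The cells in neither class, 253 in CNT and 258 in 3CK, held JAK2 at 46.4 and 116 CPM and STAT2 at 50.1 and 132 CPM, above both classes of the same library. Of these cells, 28.1% and 28.7% were rich in MALAT1, a long noncoding RNA kept in the nucleus, against 5.42% and 9.25% of epithelial cells. Cells of neither class rich in MALAT1 held JAK2 at 94.8 and 346 CPM and STAT2 at 88.2 and 355 CPM. The others held JAK2 at 23.0 and 51.5 CPM and STAT2 at 31.6 and 69.6 CPM. Epithelial cells not rich in MALAT1 held JAK2 at 10.1 and 41.3 CPM and STAT2 at 20.5 and 70.3 CPM. Such mesenchymal cells held JAK2 at 22.8 and 26.6 CPM and STAT2 at 16.2 and 47.4 CPM. STAT2 of 3CK was thus not above the epithelial level outside MALAT1-rich cells.

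JAK2, STAT2 and STAT3 also went with MALAT1 inside the epithelial class. In CNT epithelial cells JAK2 was at 58.6 CPM in the 90 barcodes with at least 300 MALAT1 UMIs per 10000 and at 10.1 CPM in the other 1570, 5.79-fold (4.8 to 6.95). In 3CK the values were 247 CPM in 94 and 41.3 CPM in 922 barcodes, 5.99-fold (5.59 to 6.40). STAT2 was 3.91-fold and 3.75-fold higher in such barcodes and STAT3 3.11-fold and 3.13-fold, IFNAR1 was 1.12-fold and 1.06-fold, and SOCS1 was at 0.688 times (0.295 to 1.37) and 0.456 times (0.390 to 0.531). The median log2 ratio of all genes was 1.00 in CNT and 0.86 in 3CK, and 50.1% and 46.8% of genes were at least 2-fold higher there, so SOCS1 and IFNAR1 lay below the median and JAK2, STAT2 and STAT3 above it in both libraries. The difference between libraries was present in both kinds of barcode: JAK2 was 4.22-fold higher in 3CK in MALAT1-rich epithelial barcodes (3.54 to 5.07) and 4.08-fold in the others (3.76 to 4.43), and SOCS1 10.1-fold (5.02 to 23.8) and 15.2-fold (13.7 to 17.0).

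**Figure D5:**
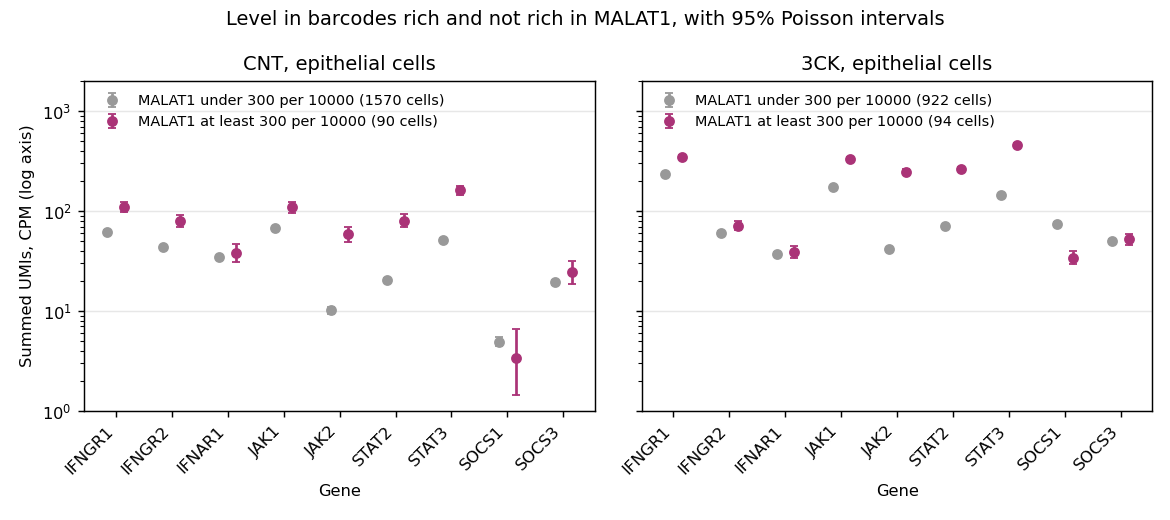
Level (CPM, log axis) of each gene in epithelial barcodes rich in MALAT1 (magenta) and in the others (grey), CNT left and 3CK right, with 95% Poisson intervals. JAK2, STAT2 and STAT3 are higher in MALAT1-rich barcodes of both libraries, and SOCS1 lies lower there in 3CK.

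Of 25 further genes of the pathway, all at 1 CPM or more over all kept cells, 3 were at least 2-fold higher in 3CK (6.96% of all genes were) and 0 lower, with a median log2 ratio of 0.27. These were USP18, which holds back signalling at the type I receptor (5.27 CPM in CNT and 56.6 CPM in 3CK, log2 ratio 3.42, 3.29 to 3.55), STAT5A (1.56 and 15.5 CPM, 3.31, 3.07 to 3.55) and IRF9 (23.8 and 57.6 CPM, 1.28, 1.21 to 1.35). The close relative STAT5B was at 9.22 and 8.38 CPM, a log2 ratio of -0.14 (-0.28 to 0.001). The lowest ratios were those of SOCS5 (-0.61), STAT4 (-0.59) and PIAS2 (-0.46), and TYK2, the kinase of the type I receptor, was at 12.8 and 14.3 CPM.

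Among 22 measured receptor genes of other JAK-coupled cytokines, 4 were at least 2-fold higher in 3CK and 4 lower. Of all genes, 6.96% were at least 2-fold higher and 11.3% at least 2-fold lower. Higher were IL15RA (3.58 and 67.4 CPM, log2 ratio 4.23), IL12RB1 (0.137 and 1.52 CPM, 3.47), CSF2RA (1.40) and OSMR (37.5 and 83.9 CPM, 1.16). Lower were GHR, the growth hormone receptor (107 and 15.7 CPM, -2.77), LIFR (211 and 91.7 CPM, -1.20), IL6ST, the shared chain of the interleukin-6 family (228 and 108 CPM, -1.09), and LEPR (-1.01). These counts pool all cells, of which 23.1% were mesenchymal in CNT and 8.87% in 3CK. Within epithelial cells IL6ST was at 177 and 102 CPM, under 2-fold apart (log2 ratio -0.80), and OSMR was at 19.7 and 76.7 CPM. In mesenchymal cells OSMR was at 100.1 and 97.2 CPM, while IL6ST was at least 2-fold lower in 3CK there. Of 10 interferon genes, IFNL1 alone reached 1 CPM, with 93 UMIs in 3CK against 3 in CNT, a log2 ratio of 5.10 with an interval of 3.51 to 7.41, and IFNG itself had 3 and 2 UMIs.

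Genes with the most similar pattern were looked for among 12480 genes over 10 groups of cells, the 5 ranges in each library, by the root mean square distance of centred log2(CPM + 1) values. The nearest was CCDC24 for IFNGR1 (distance 0.25 log2 units, where IFNGR1 itself ranged over 3.48), TRIM25 for STAT2 (0.30 of 3.37), XRN1 for JAK2 (0.23 of 3.14), PCYT1A for STAT3 (0.15 of 2.14) and BHLHE40 for JAK1 (0.22 of 1.76). For SOCS1 it was TNFRSF1B, a TNF receptor (0.43 of 4.63), for SOCS3 the death receptor FAS (0.19 of 1.65), for IFNGR2 LINC00842 (0.15 of 1.28) and for IFNAR1 STARD3 (0.09 of 0.70).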

How the data were processed

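The deposited matrices hold the authors' raw UMI counts per gene and barcode, which per the file headers came from Cell Ranger 7.1.0, on GRCh38 per the submitters' processing notes. Barcodes with at least 500 genes and at most 20% mitochondrial UMIs were kept, which left 2487 of 3257 in CNT and 1398 of 1641 in 3CK. Scrublet (scanpy 1.11.5) scored doublets, and a share of 0.8% per 1000 barcodes with the top scores was dropped. Counts were summed over cells and scaled to CPM by the total. Ratios carry 95% intervals from exact binomial intervals of the split of both counts, levels exact Poisson and shares exact binomial (Clopper-Pearson) intervals, differences of shares Newcombe intervals, and differences of log2 ratios normal intervals from Poisson errors. A count of 0 was set to a floor of 3 UMIs in ratios. A gene was called at 2-fold among genes at 1 CPM or more in either group, and the ratio was tested on simulated data. TMM factors came from edgeR 4.0.16. Whether the counting used strand is not given in the sources used here, and reads of overlapping genes may be shared. UMI counts from the 3' end are not compared between genes.

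The 9 genes were given, and the classes and gene lists were chosen with earlier results of these data known. All 9 genes are named. In each list the 3 highest and 3 lowest ratios and those at 2-fold could be named, and the nearest gene by pattern of each member. The tissue markers, the comparison by MALAT1 within a class and the alternative class by DCN were chosen after values were seen. Some genes are not reported here.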

Additional observations from a re-analysis of the deposited data

Results flagged for a closer look

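IFNGR2 and STAT3 had log2 ratios of 3CK over CNT on opposite sides of 0 in epithelial and mesenchymal cells, each from 1 library per group. IFNGR2 was at 0.46 in epithelial and -0.21 in mesenchymal cells. STAT3 was at 1.61 in epithelial and -0.048 in mesenchymal cells, where its interval includes 0. The median of all genes in mesenchymal cells was -0.21, so IFNGR2 lay at it and STAT3 above it. The mesenchymal sign of STAT3 depends on the scaling and the barcodes kept, with 0.13 under TMM factors, 0.15 under median-of-ratios factors, 0.18 with equal weight per cell and 0.069 without MALAT1-rich barcodes, and IFNGR2 was at -0.014 with median-of-ratios factors. The difference was not tested across replicates.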

How the results depend on the processing

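Each of the 11 main counts and medians was recomputed with other filters, doublet rates, scalings, weights, minimums and classes, and 130 values kept to within 1.5 times of the count, or within the counting interval of the median, while 19 did not. The number of genes at least 2-fold higher in 3CK was 7 in epithelial cells under all 14 alternatives, and over all cells it was between 5 and 7, the lowest with a total without the 50 most abundant genes, where JAK1 (0.97) and SOCS3 (0.99) lay just under 1 on the log2 scale. The 2 genes of mesenchymal cells became 1 with the class drawn by DCN and 3 with equal weight per cell (IFNGR1 1.09, STAT2 1.88, SOCS1 1.55). Genes higher in mesenchymal than in epithelial cells of CNT fell from 4 to 1 with TMM factors, median-of-ratios factors or equal weight per cell, and the opposite order went from 0 to 1 with either set of factors. Genes higher in epithelial cells of 3CK went from 1 to 2 with TMM factors, median-of-ratios factors, that same total, a doublet rate of 5%, only barcodes of at least 10000 UMIs, or stricter classes, and to 3 by DCN. The median log2 ratio of 1.30 was 1.39 with TMM factors, 1.38 with median-of-ratios factors, 1.20 without the abundant genes, 1.45 with equal weight and 1.20 without MALAT1-rich barcodes. The count of lower pathway genes went from 0 to 1 with equal weight. Of 45 ratios of single genes, 35 kept their side of 2-fold, and 0 called ratios changed sign. The cause of these shifts was not tested. No paired analysis was possible because each group has 1 library, and no library could be left out. Low counts limit SOCS1, which rests on 8 UMIs in MALAT1-rich and 17 in cycling epithelial cells of CNT.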
